A study of Mus musculus with 8 samples.

Results

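Excitation-contraction coupling and calcium handling were described from 36 genes of the 32390 rows of a gastrocnemius RNA-seq table, chosen by name and grouped by role into triad channels (7 genes), junctional proteins (9), SERCA regulators (2), store-operated entry (3), buffers (6), the calcium/calmodulin-dependent kinase CaMKII (4) and the mitochondrial calcium uniporter (5). All 36 had a row in the table and all 36 had enough counts to be tested. The samples were gastrocnemius muscles of 4 *Nox4* fl/fl control mice and 4 MckCre:*Nox4* fl/fl mice, called NOX4-deficient here. All 8 mice carried the floxed *Nox4* alleles, so that the genotypes differed by the MckCre transgene. The creatine kinase promoter that drives it is a promoter of striated muscle, so that other cells of the tissue are expected to keep *Nox4*. No Cre-only group was among the samples. NOX4 is an NADPH oxidase that makes hydrogen peroxide, and the comparison addresses what its loss from muscle fibers did to gene expression in aged muscle. The mice were males on standard chow, 21 months old by the labels, which give 1 batch for all 8.

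In a skeletal muscle fiber the action potential runs down the transverse tubules to the triad, where the voltage-gated dihydropyridine receptor touches the ryanodine receptor of the sarcoplasmic reticulum. The ryanodine receptor then releases calcium that was held in the reticulum by calsequestrin, the calcium activates troponin on the thin filament, and the SERCA pump returns it to the reticulum. Parvalbumin and calmodulin bind calcium in the cytosol, CaMKII responds to it, and mitochondria take part of it up through the uniporter. Several of these proteins, the ryanodine receptor among them, are known to be sensitive to oxidation, a change of the protein that RNA-seq does not measure.

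The libraries held between 16350548 and 19804661 counts, and the 12 pairs of replicates all differed by more than sampling noise (a chi-square of at least 10 per degree of freedom). For *Nox4* itself, the control replicates 1 to 4 held 85, 48, 35 and 70 counts, and the NOX4-deficient replicates held 29, 43, 42 and 37. The genotypes overlapped at a log2 fold change of -0.65 (standard error, SE, 0.29, adjusted p = 0.207 by edgeR after Benjamini-Hochberg adjustment). The counts therefore do not check the genotype labels of single libraries. Skeletal muscle markers summed to between 92878 and 117114 CPM (counts scaled to library size by the TMM method) over the 8 libraries. Whole muscle holds other cells too, and in such bulk RNA fewer cells of a type and less RNA per cell cannot be told apart.

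Few genes of the calcium-handling apparatus were called, and most estimates were positive. Calls needed an adjusted p under 0.05 and a log2 fold change over 0.5 in size, and by this rule 2 of the 36 genes were higher in NOX4-deficient muscle, *Itpr1* and *Jph2*, and 0 were lower. Over all 12725 rows tested, 6.16% were called and 2.68% were called higher, so that the members' share of calls was near the background. Of the 9 genes with a negative estimate, 0 had an unadjusted p under 0.05 in edgeR, and DESeq2 and pydeseq2 also called 0 lower. Of the 36 genes, 27 had a positive and 9 a negative log2 fold change. Their median was 0.14, whereas over all rows 52.3% were positive and the median was 0.01. Ordinary markers of the fibers leaned the same way, with only the lowest of each list negative. The skeletal muscle markers ran from -0.10 to 0.18 and the fast-fiber markers from -0.39 to 0.18. In 10 of the 36 genes every NOX4-deficient library lay above every control library, against 7.2% of all rows. In 0 genes did every NOX4-deficient library lie below, against 8.97% of all rows. For 20 genes (55.6%) the 95% interval of the log2 fold change lay within -0.5 to 0.5, against 38.2% of all rows. The widest intervals were those of members with few counts (*Sln*, *Pln* and *Mcub*), and members were not compared with rows of like counts. For 11 genes (30.6%) it lay wholly above 0, against 10.7% of all rows.

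**Figure D1:**
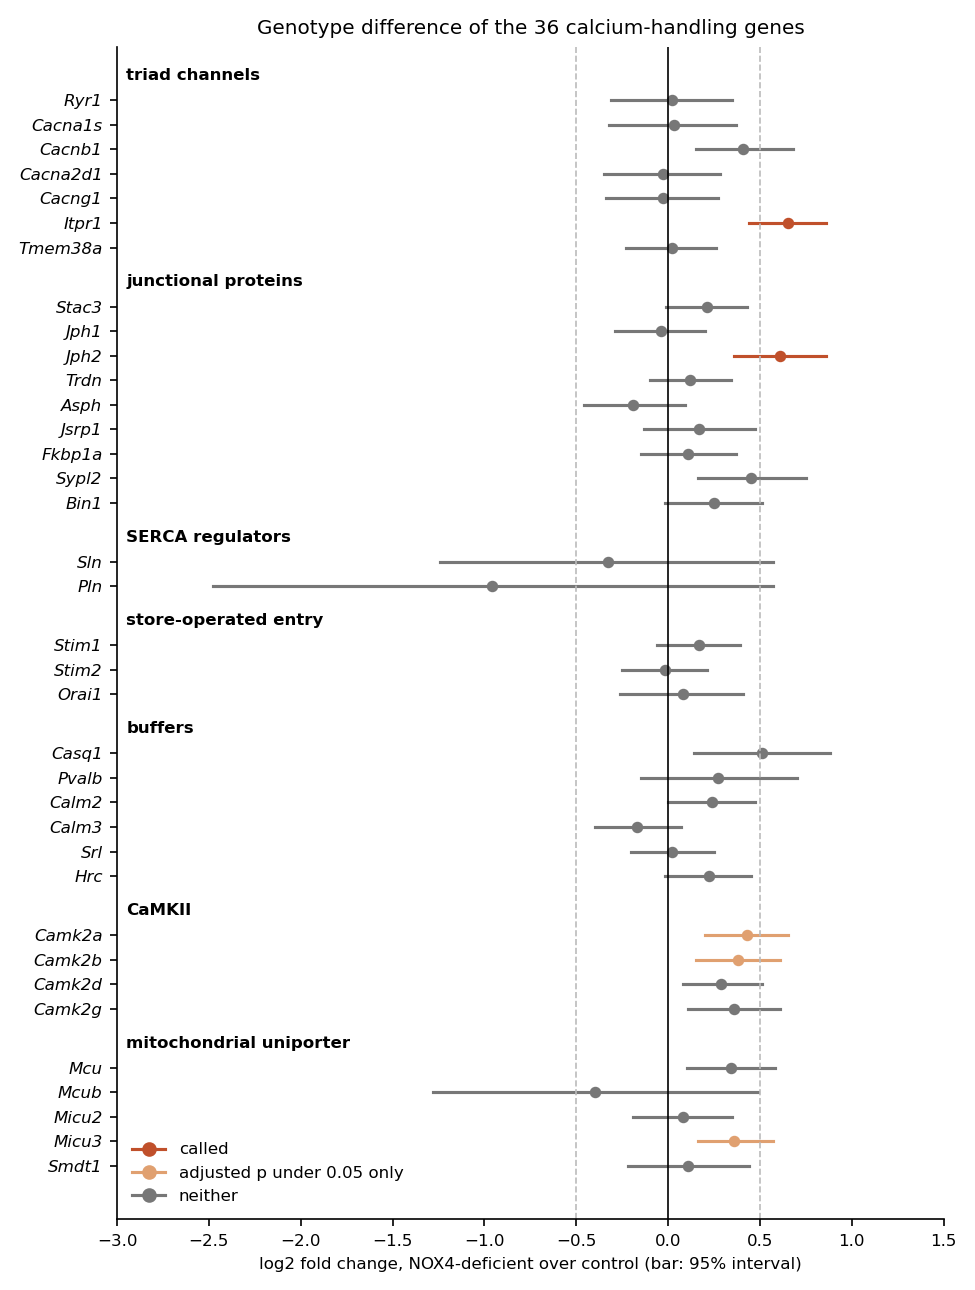
Log2 fold change of each of the 36 genes, NOX4-deficient over control, grouped by role. Points are edgeR estimates and bars 95% intervals over 4 against 4 mice, dashed lines mark a log2 fold change of -0.5 and 0.5, and only *Itpr1* (0.65) and *Jph2* (0.61) were called.

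The members held 2.67% to 3.05% of all counts in the control libraries and 2.98% to 3.69% in the NOX4-deficient libraries, and these ranges overlapped. Of this, *Pvalb* alone took 0.825% to 1.56%. Without *Pvalb* the other members held 1.85% to 2.00% of counts in the control libraries and 2.06% to 2.24% in the NOX4-deficient libraries, and these ranges did not overlap.

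Among the triad channels, *Itpr1* stood apart from the rest. *Itpr1* encodes an inositol trisphosphate receptor, a release channel of the reticulum that opens on hormonal signaling and in muscle lies partly around nuclei. It was at 76.5, 76.4, 85.9 and 68.2 CPM in control replicates 1 to 4 and at 120, 126, 119 and 117 CPM in NOX4-deficient replicates 1 to 4. All NOX4-deficient libraries were higher than all control libraries, and they lay close together, with a coefficient of variation of 3.14% against 9.44% in control. The log2 fold change was 0.65 (SE 0.10, adjusted p = 0.0022, edgeR's quasi-likelihood test), or a ratio of means of 1.57. *Itpr1* was called under all 18 alternative fits. The other inositol trisphosphate receptors, *Itpr2* and *Itpr3*, were not called. Inositol trisphosphate receptors are also abundant in smooth muscle, and 1 of 5 smooth muscle markers, *Smtn* (smoothelin), was called higher, at 29.5, 32.9, 34.2 and 25.7 CPM in the 4 control libraries and 63.2, 49.3, 51.1 and 51.3 CPM in the 4 NOX4-deficient libraries (log2 fold change 0.81, adjusted p = 0.00248, edgeR). The other 4 smooth muscle markers were not called, with log2 fold changes from -0.27 to 0.38, and none of the 5 was at 0 in any library. With *Smtn* included, the list summed to 106 to 133 CPM in control and 126 to 175 CPM in NOX4-deficient libraries. The part of smooth muscle RNA in the *Itpr1* difference was not tested.

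The core of the voltage sensor and release channel showed no such difference. *Ryr1*, the ryanodine receptor of skeletal muscle and the triad gene with the most counts, was at 3144, 3908, 3887 and 3924 CPM in control replicates 1 to 4 and at 2779, 4574, 3501 and 4230 CPM in NOX4-deficient replicates 1 to 4. The NOX4-deficient libraries lay both below and above the control libraries, and the log2 fold change was 0.02 with a 95% interval from -0.31 to 0.35. *Cacna1s*, the pore-forming and voltage-sensing subunit of the dihydropyridine receptor, had a log2 fold change of 0.03 (95% interval -0.32 to 0.37). Its partners *Cacna2d1* and *Cacng1* were at -0.03 each, and *Tmem38a*, a counter-ion channel of the reticulum, was at 0.02. *Ryr1*, *Cacna1s* and *Cacna2d1* were all higher in NOX4-deficient replicates 2 and 4 than in replicates 1 and 3, with coefficients of variation of 21.2%, 24.3% and 21.1% against 10.3%, 9.81% and 7.59% in control.

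*Cacnb1*, the beta subunit that carries the dihydropyridine receptor to the triad, was at 112, 103, 108 and 91.3 CPM in controls and 137, 117, 169 and 127 CPM in NOX4-deficient mice. Each NOX4-deficient library lay above the highest control library, but the gene did not pass the test (log2 fold change 0.41, adjusted p = 0.0604, edgeR). The subunits of 1 channel complex thus had unlike estimates, of 0.41 for *Cacnb1* and between -0.03 and 0.03 for the other 3, a contrast that was not tested.

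Junctional proteins hold the triad membranes together or tie channels to each other. *Jph2*, a junctophilin that spans the gap between transverse tubule and reticulum, was at 667, 644, 722 and 527 CPM in control replicates 1 to 4. In NOX4-deficient replicates 1 to 4 it was at 1041, 946, 1025 and 897 CPM. The groups were well separated, since the lowest NOX4-deficient library was above the highest control library by more than the SD of either group (82.0 CPM for control and 67.8 CPM for NOX4-deficient). The log2 fold change was 0.61 (SE 0.12, 95% interval 0.36 to 0.86, adjusted p = 0.00918, edgeR), and *Jph2* was called under all 18 fits. *Jph1*, the other junctophilin of skeletal muscle, had a log2 fold change of -0.04 with a 95% interval from -0.29 to 0.20, below that of *Jph2*, and the difference between both genes was not tested. Per length of exon, *Jph1* and *Jph2* were at 124 ± 11.8 and 150 ± 19.3 reads per kilobase of exon at the scale of CPM (RPKM; SD, n = 4) in control muscle. They were at 121 and 230 RPKM with NOX4 deficiency.

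The start of *Jph2* is shown because it is the called gene with a promoter window in the reference. The 300 bases from 250 before to 50 after its start site, on the minus strand of chr2:163397944-163398243 (GRCm38.p6, RefSeq), hold 1 E-box (CANNTG, here CAGCTG, at position -9 from the start site) and 1 NFAT core (GGAAA, here on the other strand as TTTCC, at position -211), both in capitals.
Jph2: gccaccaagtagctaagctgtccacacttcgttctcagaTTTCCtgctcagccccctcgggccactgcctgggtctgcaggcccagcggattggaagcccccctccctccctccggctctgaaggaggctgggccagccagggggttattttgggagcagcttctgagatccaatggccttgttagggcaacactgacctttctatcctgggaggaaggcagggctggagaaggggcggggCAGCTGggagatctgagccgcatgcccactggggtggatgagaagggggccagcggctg
Such short motifs are common, and an E-box was in 72.3% and an NFAT core in 61.3% of all 32851 windows when both strands were searched. Windows were found for 22 of the 36 genes (25 windows). An E-box was in 15 and an NFAT core in 15 of these windows. The antioxidant response element core (TGACNNNGC), to which NFE2L2 binds, was in 3 member windows, those of *Cacna1s*, *Mcub* and *Sypl2*, and in 12.4% of all windows. The MEF2 core, CTA and TAG parted by 4 bases, was in 0 member windows and in 3.69% of all windows. The motifs do not overlap in the *Jph2* window.

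*Sypl2*, or mitsugumin 29, a synaptophysin-like protein of the triad, was the other junctional gene whose groups did not overlap. It was at 281, 265, 328 and 208 CPM in the 4 control libraries and 362, 344, 429 and 346 CPM in the 4 NOX4-deficient libraries. Every NOX4-deficient library was higher, but the nearest libraries were close and the gene was not called (log2 fold change 0.45, adjusted p = 0.0628, edgeR). *Trdn*, or triadin, which anchors calsequestrin at the ryanodine receptor, had the most counts of the group. It was at 1568, 1535, 1819 and 1687 CPM in controls and 1750, 1773, 1870 and 1790 CPM in NOX4-deficient mice, with overlap and a log2 fold change of 0.12. The remaining junctional genes were *Stac3*, an adaptor of the dihydropyridine receptor (0.21), *Bin1*, which shapes the transverse tubules (0.25), *Jsrp1* (0.17), *Fkbp1a*, a protein bound to the ryanodine receptor (0.11), and *Asph*, whose locus encodes junctin (-0.19). Their groups overlapped, and none of them was called.

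**Figure D2:**
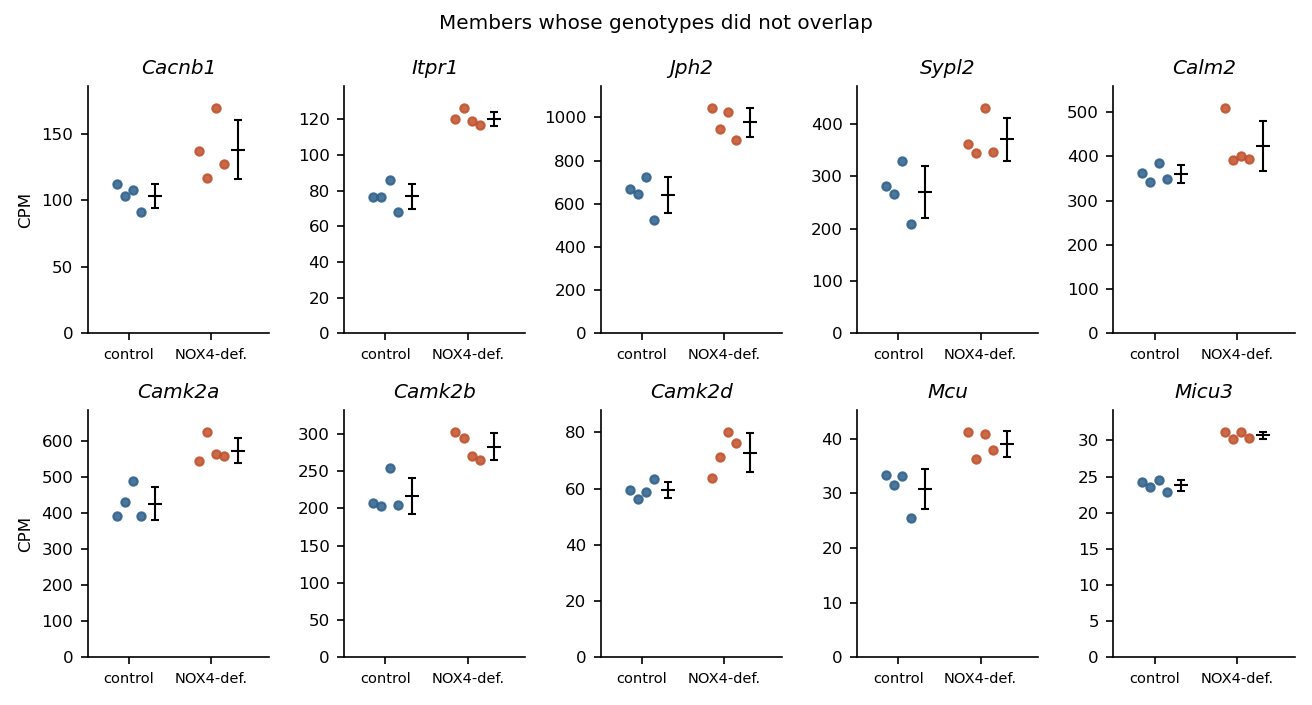
Normalized level (CPM, axes from 0) of the 10 genes whose NOX4-deficient libraries all lay above the control libraries. Points are single mice, replicates 1 to 4 from left to right, with mean and SD beside them, and of these genes *Itpr1* and *Jph2* were called.

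Buffers hold calcium in the lumen of the reticulum or in the cytosol. *Casq1*, calsequestrin of fast fibers and the main calcium store of the reticulum, was at 1964, 1836, 2520 and 1462 CPM in control replicates 1 to 4 and 2925, 2352, 3384 and 2417 CPM in NOX4-deficient replicates 1 to 4. Control replicate 3 lay above NOX4-deficient replicates 2 and 4, and the other 3 control libraries lay below all NOX4-deficient libraries. The log2 fold change was 0.51 (SE 0.17, adjusted p = 0.0897, edgeR), so that *Casq1* was not called. It was called under 5 of 18 fits, with the smallest adjusted p of 0.0104 in edgeR with a term for odd and even replicates, and among fits without 1 library only without control replicate 3 (0.67, adjusted p = 0.0397). *Pvalb*, or parvalbumin, the soluble buffer of fast fibers and the member with the most counts, was at 10354, 8350, 11102 and 8150 CPM in control. It was at 12714, 8254, 15792 and 9159 CPM in NOX4-deficient muscle. Replicates 1 and 3 were the higher libraries of both genotypes, the groups overlapped, and the log2 fold change was 0.27 (adjusted p = 0.44, edgeR).

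*Calm2* encodes calmodulin, as does *Calm3*. *Calm2* was at 363, 343, 386 and 348 CPM in the 4 control libraries and 508, 392, 401 and 394 CPM in the 4 NOX4-deficient libraries. The groups did not overlap, but 3 NOX4-deficient libraries lay just above control replicate 3, and the log2 fold change was 0.24 (adjusted p = 0.218, edgeR). *Calm3* had an estimate of the other sign, -0.17 (adjusted p = 0.39, edgeR). *Hrc*, a histidine-rich calcium binder of the lumen, was at 0.22 and *Srl*, or sarcalumenin, at 0.02, and neither was called.

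The 4 CaMKII genes had like estimates. *Camk2a* was at 394, 432, 490 and 393 CPM in controls and 546, 625, 566 and 559 CPM in NOX4-deficient mice, without overlap. Its log2 fold change was 0.43 (SE 0.10, adjusted p = 0.0288, edgeR), past the threshold on p and under the minimum fold change. *Camk2b* was at 207, 203, 254 and 205 CPM in control replicates 1 to 4 and 302, 295, 270 and 265 CPM in NOX4-deficient replicates 1 to 4. Control replicate 3 came near the NOX4-deficient libraries, and the log2 fold change was 0.38 (adjusted p = 0.0454, edgeR), again under the minimum fold change. *Camk2d* was at 59.4, 56.2, 58.6 and 63.3 CPM in the 4 control libraries and 63.7, 71.1, 79.9 and 76.1 CPM in the 4 NOX4-deficient libraries. The groups did not overlap by a narrow margin, and the log2 fold change of 0.29 did not pass the test (adjusted p = 0.0959, edgeR). *Camk2g* overlapped between groups, with a log2 fold change of 0.36 (adjusted p = 0.0835, edgeR). Without the minimum fold change 5 members had an adjusted p under 0.05, all higher, against 3.13% of all rows, and *Camk2a* and *Camk2b* were among them. With 1 library left out, the adjusted p of *Camk2a* was no longer under 0.05 in 5 of 8 edgeR fits (0.0552 to 0.0871), without control replicate 1, 2 or 4 or NOX4-deficient replicate 2 or 3. That of *Camk2b* was no longer under 0.05 in 7 of 8 such fits, all but the fit without control replicate 3, and with no filter on low counts (0.0549 to 0.121).

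The shares of the family members differed little between genotypes. Per length of exon, *Camk2a* took 52.8% ± 1.01 of CaMKII transcripts in control and 53.9% ± 1.68 in NOX4-deficient muscle (SD, n = 4 each). *Camk2b* and *Camk2g* took 22.0% ± 0.957 and 22.8% ± 1.32 in control, and *Camk2d* 2.46% ± 0.324. Their shares in NOX4-deficient muscle were 21.7% ± 1.35, 22.2% ± 1.79 and 2.27% ± 0.278, all within 1 SD of control. The lengths are unions of annotated exons, which for *Camk2d* come to 22.5 kb, so that the order of the isoforms depends on the annotation.

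The uniporter genes were expressed at lower levels. *Micu3*, a gatekeeper that raises calcium uptake, was at 24.3, 23.6, 24.5 and 22.9 CPM in controls and 31.1, 30.2, 31.1 and 30.4 CPM in NOX4-deficient mice. The 8 libraries formed narrow groups with coefficients of variation of 3.03% and 1.52%, and the log2 fold change was 0.36 (SE 0.09, adjusted p = 0.033, edgeR), under the minimum fold change. The adjusted p was no longer under 0.05 with any 1 of the 8 libraries left out or with no filter on low counts (0.051 to 0.0876, edgeR). *Mcu*, the pore, was at 33.3, 31.5, 33.1 and 25.5 CPM in control replicates 1 to 4 and 41.1, 36.2, 40.8 and 37.9 CPM in NOX4-deficient replicates 1 to 4. All NOX4-deficient libraries were higher, and the log2 fold change of 0.34 did not pass the test (adjusted p = 0.0869, edgeR). *Smdt1*, the small subunit that couples the pore to its gatekeepers and the uniporter gene with the most counts, was at 62.9, 49.5, 57.2 and 48.5 CPM in control. It was at 71.8, 44.1, 66.9 and 52.0 CPM in NOX4-deficient muscle, with overlap and a log2 fold change of 0.11. The gatekeeper *Micu2* was at 0.08. *Mcub*, the inhibitory paralog of the pore, had 5 to 18 counts per library, and its log2 fold change of -0.40 had a 95% interval from -1.28 to 0.49. The log2 ratio of *Mcub* to *Mcu* was -5.58 ± 0.43 in control and -6.34 ± 0.57 in NOX4-deficient muscle (SD, n = 4; exact two-sided permutation p = 0.114, adjusted over 3 ratios 0.343).

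Store-operated entry refills the reticulum from outside the cell. *Stim1*, its calcium sensor, was at 207, 215, 221 and 205 CPM in the 4 control libraries and 214, 259, 210 and 267 CPM in the 4 NOX4-deficient libraries. NOX4-deficient replicates 2 and 4 were higher and replicates 1 and 3 lay among the control libraries, with a log2 fold change of 0.17 (95% interval -0.06 to 0.39). *Stim2*, the second sensor, was at -0.02, and *Orai1*, the channel, at 0.08. For all 3 genes the 95% interval lay within -0.5 to 0.5. The log2 ratio of *Orai1* to *Stim1* was -3.08 ± 0.28 in control and -3.15 ± 0.38 in NOX4-deficient muscle (exact two-sided permutation p = 0.629, adjusted over 3 ratios 0.629). With 4 mice a group no such test can give a p below 0.0286.

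The SERCA regulators sarcolipin (*Sln*) and phospholamban (*Pln*) were near the lower limit of detection, at 12 to 52 counts for *Sln*. *Pln* was at 1.26, 0.772, 0.535 and 5.93 CPM in controls and 1.08, 0.809, 1.05 and 1.47 CPM in NOX4-deficient mice. Control replicate 4 alone stood high, the other 7 libraries overlapped, and the log2 fold change of -0.96 (adjusted p = 0.451, edgeR) became 0.37 without that library. Exons of *Cep85l* and another gene on the opposite strand cover 64.7% of the exon length of *Pln*, and since the libraries are unstranded its counts are uncertain. *Sln* had a log2 fold change of -0.33 (95% interval -1.24 to 0.57). The log2 ratio of *Sln* to *Atp2a1*, the pump of fast fibers, was -14.16 ± 0.79 in control and -14.53 ± 0.74 in NOX4-deficient muscle (exact two-sided permutation p = 0.514, adjusted 0.629).

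**Figure D3:**
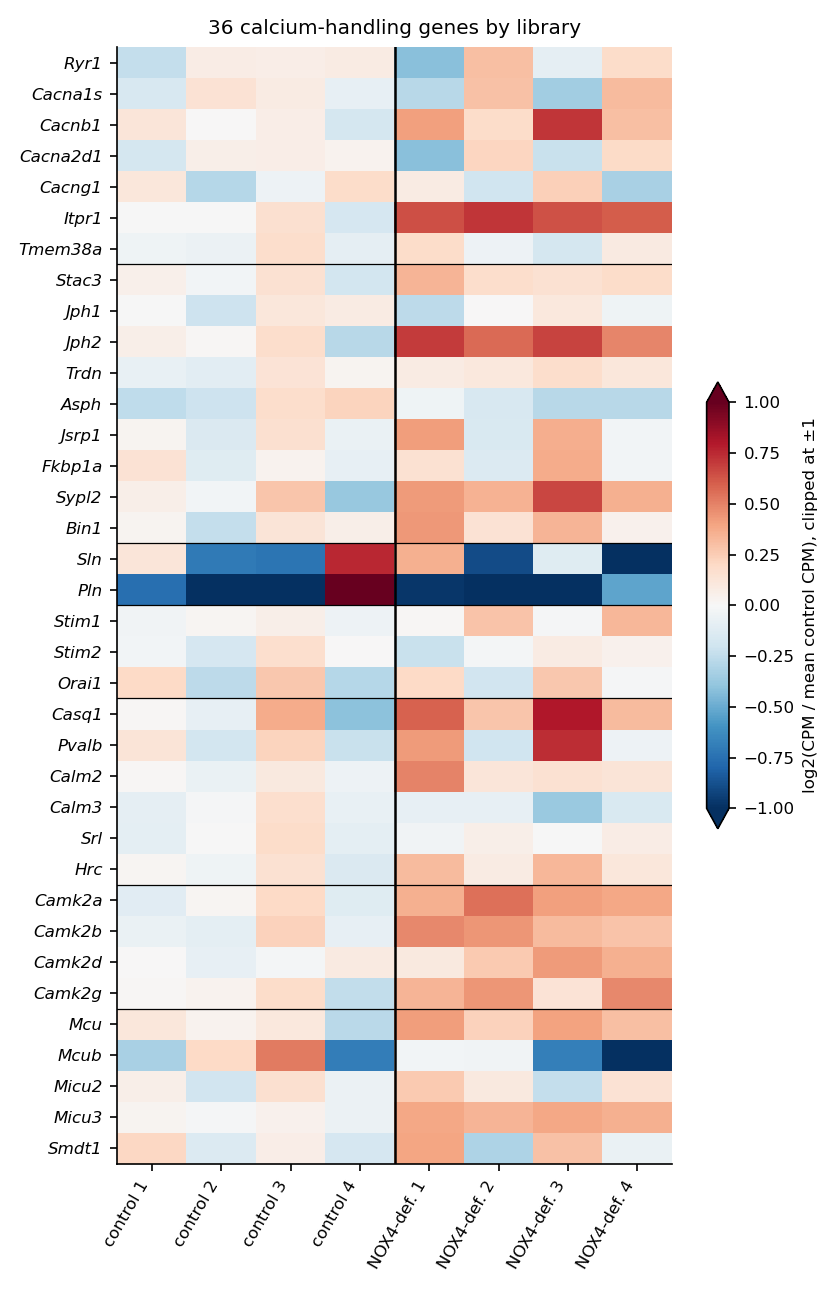
Log2 ratio of each library's CPM to the mean control CPM for the 36 genes, red for higher and blue for lower, clipped at -1 and 1. Horizontal lines part the roles in the order of the forest plot. The rows of *Itpr1*, *Jph2*, *Micu3* and the CaMKII genes are red in all 4 NOX4-deficient libraries, as are those of further genes such as *Trdn* and *Hrc*.

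Beyond the members, 76 other genes of calcium handling were listed, of which 73 had a row and 65 were tested. Of these, 3 were called higher and 2 lower, whereas 6.16% of all rows were called and 2.68% were called higher. The median log2 fold change was 0.04, and 37 were positive and 28 negative (56.9% positive, against 52.3% of all rows). *Casq2*, the calsequestrin of slow and cardiac muscle, was at 15.9, 17.9, 11.1 and 10.4 CPM in control replicates 1 to 4 and 25.3, 20.9, 24.6 and 41.0 CPM in NOX4-deficient replicates 1 to 4. It rose in all NOX4-deficient libraries, with a log2 fold change of 1.02 (adjusted p = 0.022, edgeR), and per length it was at 5.05 RPKM in control against 997 RPKM for *Casq1*. The call was lost without control replicate 3 (adjusted p = 0.0576, edgeR) or control replicate 4 (adjusted p = 0.0585, edgeR). A block for replicate number lost it too (adjusted p = 0.0733, edgeR). NOX4-deficient replicate 4, the library highest in *Casq2*, was also highest in the summed slow-fiber markers, at 724 CPM against 283 to 381 CPM in the other NOX4-deficient and 175 to 417 CPM in the control libraries. None of the 6 slow-fiber markers was called by edgeR, DESeq2 or pydeseq2 or had an unadjusted p under 0.05 in edgeR. Their log2 fold changes were all positive, from 0.35 to 1.14, with SE from 0.29 to 0.72. *Casq2* was called without NOX4-deficient replicate 4 too. The part of slow fibers in the *Casq2* difference was not tested.

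The SERCA pumps themselves were not called. *Atp2a1*, the fast-fiber pump, had a log2 fold change of 0.04 with a 95% interval from -0.21 to 0.30. *Atp2a2*, the slow-fiber pump, ranged from 107 to 197 CPM in the 4 control libraries and from 91.1 to 386 CPM in the 4 NOX4-deficient libraries (log2 fold change 0.61, adjusted p = 0.402, edgeR), with its highest value in the library that was highest in slow-fiber markers.

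The other called genes belong to the triad and to calcineurin, the calcium-dependent phosphatase that sends NFAT factors to the nucleus. *Rcan1*, an inhibitor and a known target of calcineurin, fell in all 4 NOX4-deficient libraries, from 168, 218, 226 and 161 CPM to 82.1, 69.2, 83.0 and 82.2 CPM. Its log2 fold change was -1.29 (SE 0.13, adjusted p = 1.73e-04, edgeR), the largest of the 5. *Nfatc2*, a factor that calcineurin activates, rose from 7.97, 7.82, 8.99 and 9.10 CPM to 14.5, 22.1, 16.9 and 12.1 CPM (log2 fold change 0.96, adjusted p = 0.00733, edgeR). Both genes were called under all 18 fits. Of the other 10 genes of the calcineurin list edgeR called 0, with 0 at an unadjusted p under 0.05, and by DESeq2 and pydeseq2 the called genes of all 65 were the same 5.

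*Ryr3*, a minor ryanodine receptor of adult muscle, fell from 3.12, 1.85, 1.55 and 3.85 CPM to 0.842, 1.47, 0.893 and 1.11 CPM. The groups did not overlap, the log2 fold change was -1.25 (adjusted p = 0.0399, edgeR), and the call held in 12 of 18 fits. It was lost with library size as the only scaling (adjusted p = 0.0526, edgeR) and without any 1 of control replicates 1 and 4 and NOX4-deficient replicates 1, 3 and 4, with adjusted p from 0.0743 to 0.124. Per length *Ryr3* was at 0.137 RPKM in control against 170 RPKM for *Ryr1*. *Ank1*, whose muscle form links the reticulum to the sarcomere, was at 375, 352, 380 and 322 CPM in controls and 562, 450, 551 and 461 CPM in NOX4-deficient mice. It rose just past the minimum fold change (log2 fold change 0.50, adjusted p = 0.018, edgeR) and was called in 11 of 18 fits. It was not called without control replicate 2 or 4 or NOX4-deficient replicate 1 or 3 (log2 fold change 0.46 to 0.50). Without control replicates 2 and 4 the adjusted p was 0.051 and 0.0503 (edgeR). With no filter on low counts, the odd and even term or a block for replicate number, *Ank1* was at 0.50, not past the minimum.

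**Figure D4:**
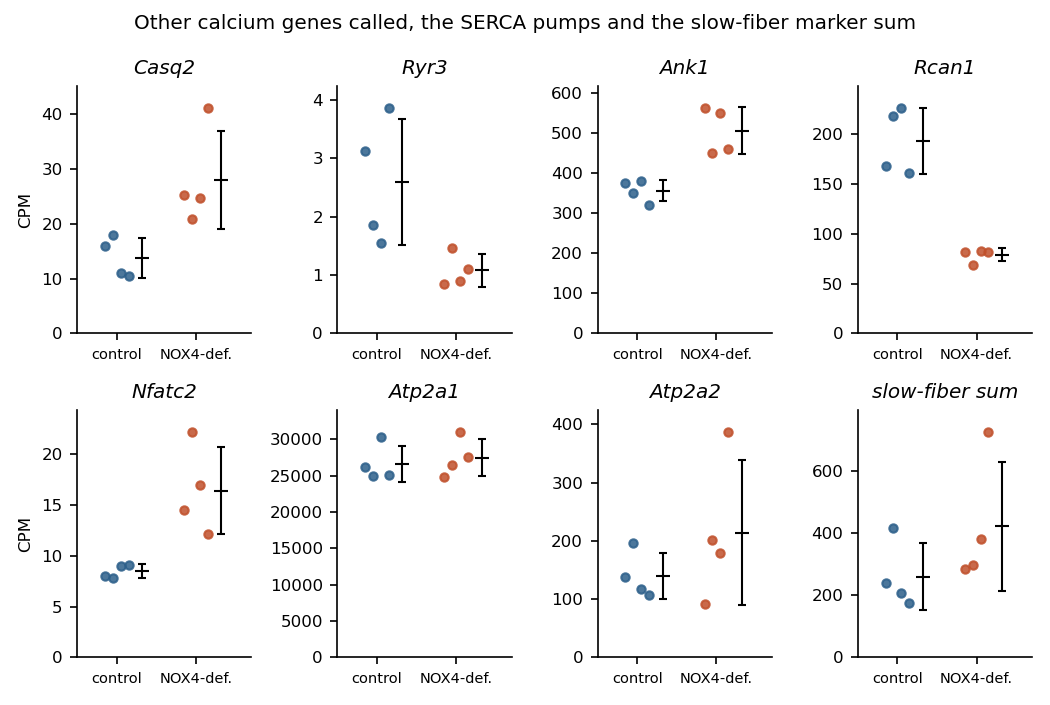
Normalized level (CPM, axes from 0) of the 5 other calcium genes called, the pumps *Atp2a1* and *Atp2a2*, and the sum of 6 slow-fiber markers. Points are single mice, replicates 1 to 4 from left to right, with mean and SD beside them, and NOX4-deficient replicate 4 is highest in *Casq2*, *Atp2a2* and the slow-fiber sum.

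The lists of endothelial, fibroblast, fat cell, leukocyte, denervation, satellite cell and fast-fiber markers had 0 of 33 tested genes called by edgeR, 8 of them with an unadjusted p under 0.05. DESeq2 called 3 of them (*Col1a2*, *Gadd45a* and *Myog*) and pydeseq2 the last 2 of these. The denervation list summed to 55.1 to 131 CPM in control replicates 1 to 4 and 45.0 to 61.6 CPM in NOX4-deficient replicates 1 to 4, and the fast-fiber list to 96175 to 116020 and 104593 to 116171 CPM. The part of these cells in the differences of the members was not tested.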

How the data were processed

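Gastrocnemius RNA of 8 mice was poly(A)-selected and sequenced as unstranded paired-end libraries. The authors deposited raw counts per gene, made with an nf-core RNA-seq pipeline, and the submitters' processing notes name STAR and GRCm39. Which annotation and counting options were used is not given in the sources used here. All 8 columns matched a sample by name. For repeated names (412 rows) the row with the most counts was used.

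The test was edgeR 4.0.16 (R 4.3.3) on TMM-scaled libraries, after its filter on low counts (filterByExpr), as a robust quasi-likelihood fit on genotype alone, with Benjamini-Hochberg adjustment over 12725 rows. Alternatives used DESeq2 1.42.0, pydeseq2 0.5.4, other scaling, filters and terms, and each library left out. Ratios of gene pairs were tested with exact permutation tests. Replicates are taken as separate mice, as the study describes them.

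Exon lengths and overlaps come from GENCODE vM21 (GRCm38), not the build of the counts, and promoters from RefSeq (GRCm38.p6). Motifs were searched on both strands.

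The members and lists were chosen with earlier results of these data known. All 36 members were accounted for. Values per sample were given for members called, members whose groups do not overlap and the member with most counts of each group, and, chosen after their values were seen, for *Casq1*. Other calcium genes were named where called, with *Atp2a1*, *Atp2a2* and *Casq2* in any case, and marker genes where called. Some genes and 1 marker list are not reported here. *Itpr2*, *Itpr3* and fast-fiber troponins were added after their values were seen.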

Additional observations from a re-analysis of the deposited data

Results flagged for a closer look

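In 8 of the 96 groups of 4 libraries examined for the genes above, 1 library stood apart past the 95% limit of Dixon's ratio. Chance gives about 1 in 20, or 4.8 of 96. Control replicate 1 was lowest in *Ryr1* (3144 CPM) and in *Cacna2d1* (509 CPM). Control replicate 3 was highest in *Tmem38a* (1421 CPM) and in *Camk2b* (254 CPM). Control replicate 4 was highest in *Pln* (5.93 CPM). NOX4-deficient replicate 1 was highest in *Stac3* (303 CPM) and in *Calm2* (508 CPM). NOX4-deficient replicate 2 was lowest in *Rcan1* (69.2 CPM).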

How the results depend on the processing

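Members called numbered 2 to 5 with each library left out, the 5 without control replicate 3 being *Itpr1*, *Jph2*, *Sypl2*, *Casq1* and *Camk2a*, and 5 without a minimum fold change (*Itpr1*, *Jph2*, 2 CaMKII genes and 1 uniporter gene). By group, junctional proteins called ranged from 1 to 2, buffers from 0 to 1 and CaMKII genes from 0 to 1 with a library left out, and 1 buffer, *Casq1*, was called by DESeq2, by pydeseq2, with a term for odd and even replicates and with the replicate block. Other calcium genes called numbered 2 to 5 with each library left out (2 without control replicate 4), 2 at an adjusted p under 0.01 and 3 with the replicate block, which lost *Casq2* (adjusted p = 0.0733, edgeR) and *Ank1* (0.50, under the minimum). The replicate numbers did not pair the samples: deviations of same-numbered samples correlated at 0.25, 0.17, 0.06 and 0.05 across genes, and not every sample correlated best with its own number. The numbers were also split by parity, after the values were seen. The 8 pairs of odd with odd or even with even numbers across genotypes correlated at 0.05 to 0.25. The other 8 pairs correlated at -0.23 to -0.01. Deviations were taken from the mean of each genotype, which ties positive pairs to negative ones, so these signs do not establish a shared structure. With the block or with the odd and even term *Cacna1s* moved to 0.00 on the negative side. Without 1 library the sign changed for genes near 0 and for 2 genes with few counts, *Sln* (-0.33 with all libraries) and *Pln* (-0.96). The log2 fold changes ran from -0.64 to 0.05 for *Sln* and -1.26 to 0.37 for *Pln*. Among genes near 0 they ran from -0.08 to 0.15 for *Ryr1*, -0.07 to 0.14 for *Cacna1s* and -0.13 to 0.08 for *Cacna2d1*. The range was -0.12 to 0.07 for *Cacng1*, -0.03 to 0.10 for *Tmem38a* and -0.11 to 0.03 for *Jph1*. It was -0.08 to 0.05 for *Stim2*, -0.01 to 0.19 for *Orai1*, -0.01 to 0.10 for *Srl* and -0.01 to 0.13 for *Atp2a1*. The log2 ratio of *Orai1* to *Stim1* differed by -0.07, and by -0.19 to 0.06 with a library left out. The cause of these changes was not tested. Over 44 genes, 737 of 790 refitted values kept their direction and side of the threshold. *Mcub* has no adjusted p in DESeq2. At 4 mice a group, the 95% interval of 14 members that were not called reached beyond a log2 fold change of 0.5 in size, so that a difference of that size was not excluded for them; the widest were those of *Sln*, *Pln* and *Mcub*.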

Other observations

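Some members differed within a genotype between replicates 2 and 4 and replicates 1 and 3, a split chosen after the values were seen. In NOX4-deficient muscle the mean log2 CPM of replicates 2 and 4 exceeded that of replicates 1 and 3 by 0.50 for *Ryr1*, 0.61 for *Cacna1s* and 0.52 for *Cacna2d1*, and the difference was -0.70 for *Pvalb*, -0.53 for *Smdt1*, -0.48 for *Jsrp1* and -0.42 for *Cacng1*. Among other members with long exons it was 0.31 for *Stim1*. It was near 0 for *Camk2d* (0.04), *Itpr1* (0.02), *Asph* (-0.06), *Trdn* (-0.02) and *Camk2b* (-0.03). Across the 36 genes it correlated with log2 exon length at r = 0.68 (rho = 0.70) in NOX4-deficient muscle and at r = 0.16 (rho = 0.46) in control muscle. The control values included 1.37 for *Pln*, where control replicate 4 alone stood high. The differences of both genotypes correlated with each other at r = 0.21 (rho = 0.52). The genes share the same 8 libraries and are not independent replicates.

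*Tnnc2*, the calcium sensor of fast troponin, was at 6.74 to 11.7 CPM. Per length of exon it was at 10.5 RPKM in control muscle, whereas its partners *Tnnt3* and *Tnni2* were at 15943 and 5794 RPKM. Exons of *Ube2c* on the opposite strand cover 74.0% of its exon length in GENCODE vM21.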
